A study of Mus musculus with 4 samples.

Results

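The AP-1 and Egr immediate early genes are a set of 10 genes for transcription factors and a related early response protein: *Fos*, *Fosb*, *Fosl1*, *Fosl2*, *Jun*, *Junb*, *Jund*, *Egr1*, *Egr2* and *Ier3*. The set is defined by gene names alone, was picked with earlier results of these arrays known, and makes up 10 of the 20144 genes and 11 of the 39429 probes of the arrays. *Fosl2* has 2 probes and the other 9 genes have 1 each.

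RNA came from J774.1, a mouse monocyte-macrophage cell line, cultured for 4 h in DMSO, the solvent control, or in 1 µM of a proteasome inhibitor. The inhibitors were MG132, epoxomicin, which acts on the 20S proteasome, and ONX0914, which acts on the β5 and β5i subunits and so also on the immunoproteasome. The study set out to find genes whose expression differs once proteasomes are inhibited. There was 1 single-colour array for each condition, so nothing measures the spread between cultures, no test was possible, and every difference is one between 2 arrays. The fourth array carries the treatment label ONX-0912, while its treatment protocol and the paper name the compound as ONX0914, the name used here. No deletion or transgene is given for the cells, and all 3 inhibitor arrays are set against the same DMSO array.

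AP-1 is a family of dimers. Fos proteins (Fos, Fosb, Fosl1 and Fosl2) pair with Jun proteins (Jun, Junb and Jund), or Jun proteins with each other, through a leucine zipper and bind DNA through the basic region beside it. Egr proteins bind GC-rich sites through zinc fingers, and Egr2 also takes part in macrophage differentiation. Most of these genes are transcribed within minutes of a stimulus that reaches serum response factor, CREB or AP-1 through MAP kinases, with no need for new protein, and their mRNAs and proteins are short-lived. The proteasome degrades several of the proteins. In macrophages they take part in the response to bacterial products, growth factors and stress.

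The arrays were alike in depth. Between 60.3% and 63.1% of spots were well above background, no spot was saturated, and the 75th percentile of the signal lay between 1448 (MG132) and 1669 (epoxomicin). All 4 lay on 1 slide. Of 9 macrophage markers with a probe, 9 were well above background on every array, among them *Csf1r*, *Cd14* and *Adgre1*. Their summed signal was 413393 in control cells, 304733 after MG132, 345147 after epoxomicin and 389082 after ONX0914. *Csf1r* gave 210824 and *Cd14* 109365 of the sum in control cells. All sums here were taken before scaling between arrays. After scaling, *Lyz2* was at least 2-fold lower after epoxomicin (log2 difference -1.01), and no other macrophage marker was at least 2-fold away with any inhibitor. Of 4 T cell markers with a probe, *Cd3e* and *Cd4* were well above background and *Cd3g* and *Cd8a* were not, with sums from 4480 to 5321. Of 5 B cell markers 1 was detected on every array (sums 61.2 to 81.5), of 4 granulocyte markers 2 (sums 2249 to 2961) and of 5 fibroblast markers 2 in control cells and 1 after each inhibitor (sums 106.6 to 149.6). Epithelial markers were undetected in control cells and after ONX0914, while 1 of 4 was detected after MG132 and 2 of 4 after epoxomicin, and their sums ran from 21.2 to 169. Their part in the differences below was not tested.

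Of the 10 genes, 8 were well above background on every array and 2, *Fosl1* and *Egr1*, on none. With MG132, 4 of the 8 measured genes were at least 2-fold higher than in control cells (*Fosl2* by the brighter of its probes, *Jun*, *Junb* and *Ier3*), where 7.2% of all genes compared were. With epoxomicin 5 of 8 were (the same genes and *Fos*), where 8.45% of all genes were. With ONX0914 none of the 8 was at least 2-fold higher, where 3.25% of all genes were. By the probe that stands for each gene, none was at least 2-fold lower with any inhibitor. The other *Fosl2* probe was at least 2-fold lower after epoxomicin (-1.04) and ONX0914 (-1.90), against the direction counted here. With another background correction, the normexp model, *Fos* was at -1.08 after ONX0914. That model put 2883 genes at least 2-fold lower after ONX0914, beside 193 as processed here. When outlier spots were left out of its fit, *Fos* was at -0.38. As processed here, the shares over all genes in the lower direction were 3.67% after MG132, 4.39% after epoxomicin and 1.39% after ONX0914. The median log2 difference of the 8 genes was 0.93 after MG132, 1.37 after epoxomicin and 0.17 after ONX0914, beside -0.02, -0.04 and -0.0046 over all genes compared. RNA was taken from whole cultures, in which more RNA per cell and more cells with that RNA cannot be told apart.

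**Figure D1:**
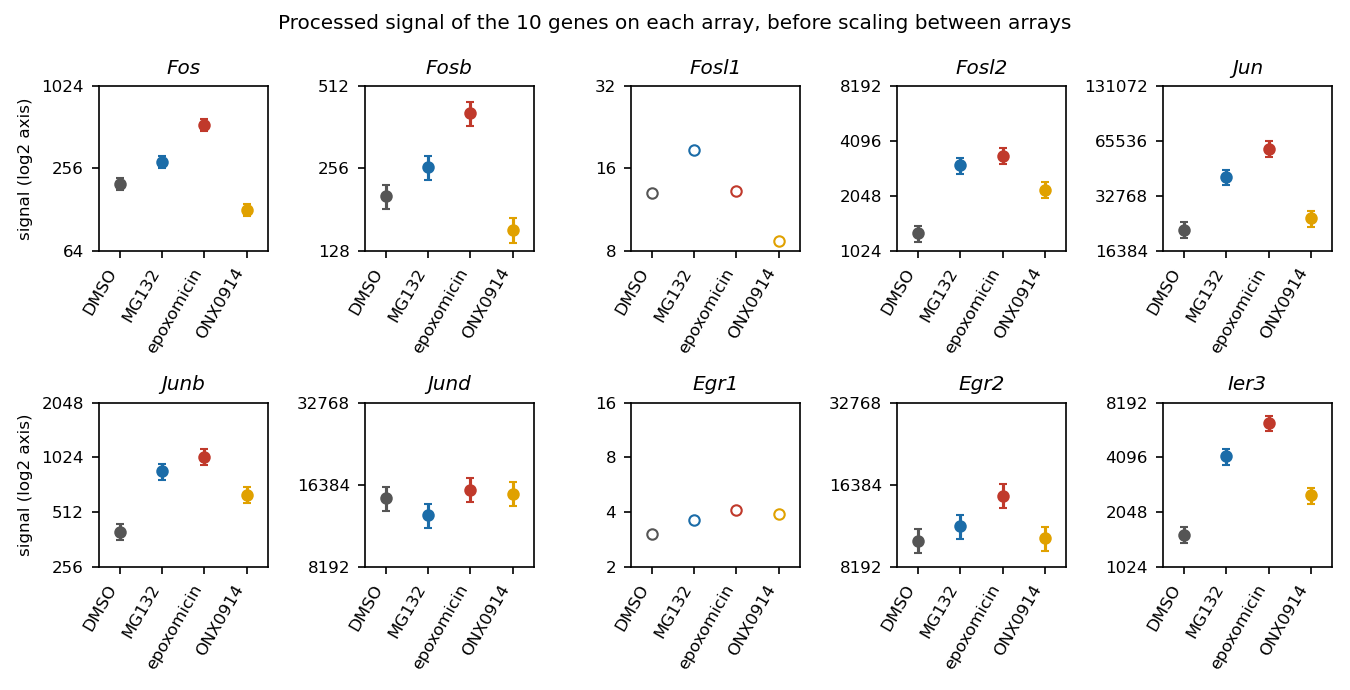
Processed signal, in the scanner's units before scaling between arrays, of the 10 genes on each of the 4 arrays, on log2 axes that differ between panels. Filled points are well above background, with the software's error of the signal as bars, and open points are not. *Fos* and *Fosb* were lowest after ONX0914, *Fosl2* (brighter probe), *Jun*, *Junb* and *Ier3* were lowest in control cells, and *Fosl1* and *Egr1* were at background throughout.

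*Fos*, the founding member of the Fos family and a common partner of *Jun*, was read by probe A_52_P262219 (transcript NM_010234), which is spotted 10 times on each array. Its mean signal was 199 in control cells, 287 after MG132, 531 after epoxomicin and 128 after ONX0914. The level after epoxomicin was the highest and that after ONX0914 was below the control. After scaling, which subtracts each array's 75th percentile from the log2 signal, *Fos* was 1.64-fold higher after MG132 (log2 difference 0.71), 2.64-fold higher after epoxomicin (1.40) and 1.51-fold lower after ONX0914 (-0.59). The 10 spots ran from 177 to 213 in control cells, from 264 to 297 after MG132, from 482 to 557 after epoxomicin and from 117 to 137 after ONX0914. The ranges of the 4 arrays did not overlap, and the SD between spots on the log2 scale was 0.0885, 0.050, 0.0626 and 0.0688 in the same order. These spots are technical repeats of 1 RNA sample per condition. Of the 13860 genes compared between ONX0914 and DMSO, *Fos* ranked 685 from the lowest difference. These values depended on the processing. The normexp model, which estimates background from the distribution of all spots, was run on median spot signals, with 50 added to every value. It therefore changed more than the background estimate, and the part of each change was not tested. With the normexp model the difference after MG132 was -0.16, that after epoxomicin 0.38 and that after ONX0914 -1.08. When spots marked as outliers were left out of the model's fit, they were 0.54, 1.07 and -0.38.

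**Figure D2:**
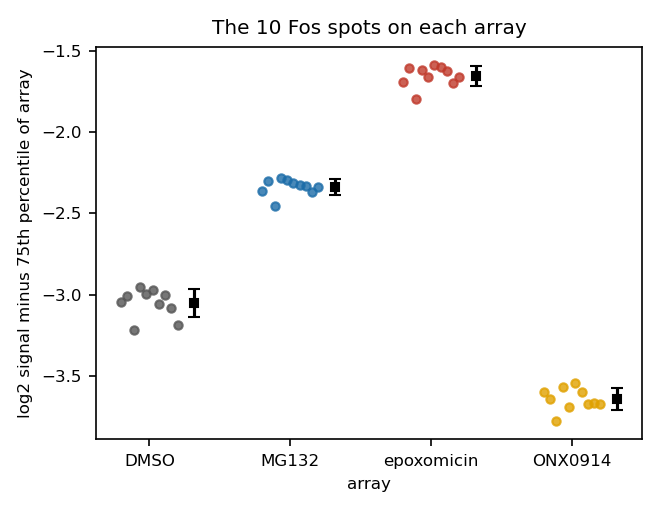
Log2 signal minus the array's 75th percentile (vertical axis) of the 10 spots that carry the *Fos* probe on each array (coloured points), with their mean and SD (black squares and bars). The 4 arrays stand apart in the order epoxomicin, MG132, DMSO, ONX0914, with SDs from 0.050 to 0.0885 between spots.

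*Fosb*, whose protein also pairs with Jun proteins, followed the same order on its single spot (probe A_55_P2113051, NM_008036). Its signal was 203 in control cells, 258 after MG132, 406 after epoxomicin and 153 after ONX0914. It was 1.45-fold higher after MG132 (log2 difference 0.54), 1.98-fold higher after epoxomicin (0.98) and 1.29-fold lower after ONX0914 (-0.37). *Fosb* after epoxomicin therefore lay just below the 2-fold limit. No replicate spots exist for it, so the precision of a single spot was taken from probes spotted several times. Their median SD was at most 0.0613 on the log2 scale, which gives 0.0867 for a difference between 2 spots and is called the spot spread below. It is 1 SD over detected probes of any brightness. The dim *Fos* spots in control cells had a larger SD, 0.0885. The software's error of the members' signals, 10.0% to 13.4%, was also wider. A difference beyond the spot spread is therefore not shown to be more than noise. With the normexp model the difference of *Fosb* after MG132 was -0.33 (0.40 when outlier spots were left out of its fit) and that after epoxomicin 0.05 (0.77).

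The stretches just before the transcription starts of *Fos* and *Fosb* are shown because these genes were the only members whose level after ONX0914 lay below DMSO, each gene being read by its brightest probe. Both are RefSeq sequences of GRCm38.p6, 250 bases that end at the base before an annotated start, at chr12:85473640-85473889 on the plus strand for *Fos* and at chr7:19310046-19310295 on the minus strand for *Fosb*, where the start used lies inside the gene's annotated span. Capitals mark TGACG, the core of the cAMP response element, GCGGGGGCG, a form of the Egr site, and TATAA.
Fos: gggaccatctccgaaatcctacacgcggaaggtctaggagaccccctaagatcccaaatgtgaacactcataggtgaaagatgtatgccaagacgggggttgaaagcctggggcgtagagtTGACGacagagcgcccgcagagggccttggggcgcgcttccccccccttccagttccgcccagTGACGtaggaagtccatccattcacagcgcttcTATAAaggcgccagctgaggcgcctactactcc
Fosb: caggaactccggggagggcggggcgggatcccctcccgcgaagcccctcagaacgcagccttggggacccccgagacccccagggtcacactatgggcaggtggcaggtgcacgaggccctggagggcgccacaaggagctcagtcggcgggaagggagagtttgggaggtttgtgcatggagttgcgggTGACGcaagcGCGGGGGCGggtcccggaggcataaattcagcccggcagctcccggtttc
With bases counted back from the start, the base before it being -1, TGACG began at -129 and -66 in *Fos* and at -60 in *Fosb*, and *Fosb* held GCGGGGGCG at -50. *Egr2* had 5 such windows, some of them overlapping, and was counted if any held a motif, while the shares below are over windows. Among the 8 members with such a window, TGACG on either strand was in those of *Fos*, *Fosb*, *Junb* and *Egr2*, where 17.8% of 32851 windows of this length held it. GCGGGGGCG on either strand was in those of *Fosb* and *Fosl2*, at 2.57% of all windows. TATAA, read on the gene's strand only, was in those of *Fos*, *Ier3* and *Egr2*, at 16% of all windows, and in *Fos* it began at -33. No member's window held TGAGTCA, the consensus AP-1 site (4.46% of all windows), or the full cAMP response element TGACGTCA, which contains TGACG (1.55%), each read on either strand. A CArG box, the binding site of serum response factor, was in windows of *Egr2* alone among the members (1.47% of all windows). Bases further than 250 before a start were not searched, so a motif absent here may lie there. These are matches of letters in a short window and say nothing of binding.

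*Fosl1*, which encodes Fra-1, was not well above background on any array, with signals of 13.0 in control cells, 18.8 after MG132, 13.2 after epoxomicin and 8.71 after ONX0914. The lowest signals called well above background were 14.7 in control cells, 17.8 after MG132, 20.3 after epoxomicin and 19.3 after ONX0914. After MG132 *Fosl1* lay above that lowest signal, but the software did not mark its spot as well above background. No difference was taken for it.

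*Fosl2*, which encodes Fra-2, has 2 probes that differed from DMSO in opposite directions. The brighter, A_55_P1995195, stood for the gene by the rule that takes the probe with the highest mean. Its signal was 1281 in control cells, 3012 after MG132, 3401 after epoxomicin and 2221 after ONX0914. It was lowest in control cells and was 2.67-fold, 2.62-fold and 1.78-fold higher with the inhibitors (log2 differences 1.42, 1.39 and 0.83). The dimmer, A_51_P507242, gave 176 in control cells, 89.6 after MG132, 87.0 after epoxomicin and 45.9 after ONX0914. It was highest in control cells, and was 1.73-fold lower after MG132 (-0.79), 2.06-fold lower after epoxomicin (-1.04) and 3.74-fold lower after ONX0914 (-1.90). Both are annotated to NM_008037 and both were well above background on every array. Where on the transcript each probe lies was not determined here, so a direction for the gene as a whole cannot be given. With the mean of both probes the differences were 0.31, 0.18 and -0.54.

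**Figure D3:**
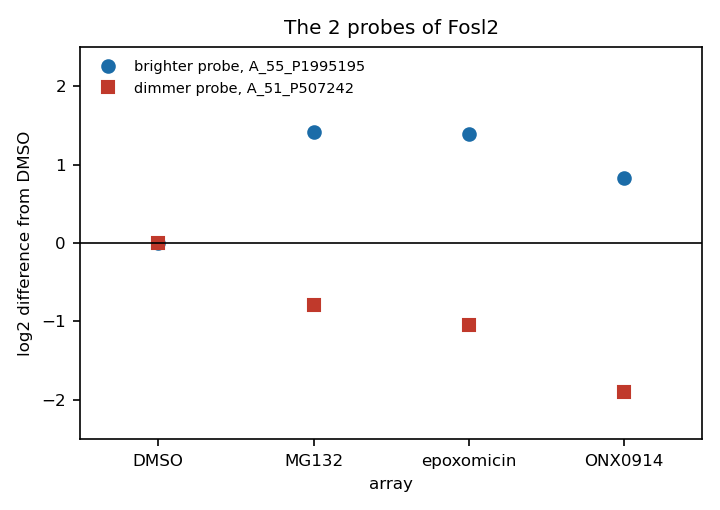
Log2 difference from DMSO (vertical axis) of the 2 *Fosl2* probes on each array, with DMSO at 0. The brighter probe (circles) lay between 0.83 and 1.42 with the inhibitors and the dimmer probe (squares) between -1.90 and -0.79.

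*Jun*, the founding member of the Jun family, was read by probe A_55_P2158990 (NM_010591). Its signal was 21369 in control cells, 41558 after MG132, 59572 after epoxomicin and 24748 after ONX0914. The levels after MG132 and epoxomicin stood well above the other pair. *Jun* was 2.21-fold higher after MG132 (log2 difference 1.14), 2.75-fold higher after epoxomicin (1.46) and 1.19-fold higher after ONX0914 (0.25). Without scaling between arrays the difference after MG132 was 0.96, just under 2-fold.

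The window before the start of *Jun*, at chr4:95052223-95052472 on the minus strand of GRCm38.p6 (RefSeq), is shown for its TGACATCA (capitals), a sequence looked for after the window had been read and a variant of the element that Jun dimers bind.
Jun: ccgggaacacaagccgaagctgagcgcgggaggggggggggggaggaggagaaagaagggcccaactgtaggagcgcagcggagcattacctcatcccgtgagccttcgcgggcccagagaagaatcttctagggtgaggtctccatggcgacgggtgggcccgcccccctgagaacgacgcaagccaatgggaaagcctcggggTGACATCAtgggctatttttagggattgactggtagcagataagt
TGACATCA began at -45. It was in 2.93% of all windows, on either strand, and in that of no other member.

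*Junb* encodes a Jun protein that activates transcription less strongly than Jun at many sites. Its signal (probe A_55_P2011106, NM_008416) was 401 in control cells, 860 after MG132, 1032 after epoxomicin and 639 after ONX0914. All 3 inhibitor arrays were above the control, by 2.44-fold after MG132 (log2 difference 1.29), 2.54-fold after epoxomicin (1.35) and 1.64-fold after ONX0914 (0.71). With the normexp model these differences were 0.59, 0.63 and 0.07, and 1.097, 1.13 and 0.57 when outlier spots were left out of its fit.

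*Jund*, the member of the family that is expressed in resting cells, had the narrowest differences from DMSO of the 8 measured genes after MG132 and epoxomicin. Its signal (probe A_51_P357744, NM_010592) was 14680 in control cells, 12727 after MG132, 15764 after epoxomicin and 15222 after ONX0914, and the log2 differences after scaling were -0.02, 0.08 and 0.09. None of the 3 steps between its neighbouring levels exceeded the spot spread, the widest being 0.0832, but levels further apart in the order did, with ONX0914 against DMSO at 0.0915, epoxomicin against MG132 at 0.104 and ONX0914 against MG132 at 0.112. The sign after MG132 depended on the scaling, from -0.21 without scaling to 0.18 with *Hprt* as the only scaling.

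*Egr1*, a zinc finger factor induced by many stimuli, was not well above background on any array (signals 3.04 in control cells, 3.62 after MG132, 4.13 after epoxomicin and 3.94 after ONX0914), and no difference was taken. *Egr2* was bright. Its signal (probe A_55_P2033362, NM_010118) was 10251 in control cells, 11602 after MG132, 14992 after epoxomicin and 10453 after ONX0914. It was 1.29-fold higher after MG132 (log2 difference 0.36) and 1.44-fold higher after epoxomicin (0.53), while the difference after ONX0914 (0.07) was within the spot spread.

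*Ier3*, which encodes a stress-inducible protein that affects cell survival and MAP kinase signalling, had the widest differences of the 8 measured genes after MG132 and epoxomicin. Its signal (probe A_51_P286488, NM_133662) was 1542 in control cells, 4165 after MG132, 6320 after epoxomicin and 2538 after ONX0914. All 3 inhibitor arrays were above the control, by 3.07-fold after MG132 (log2 difference 1.62), 4.04-fold after epoxomicin (2.02) and 1.69-fold after ONX0914 (0.76). Of all genes compared, 3.03%, 2.37% and 5.23% had a larger difference after MG132, epoxomicin and ONX0914. *Ier3* was the member with the largest mean absolute difference, and the genes whose 3 differences from DMSO lay closest to its own were looked up among 12728 genes well above background on all arrays. They were *Ccrl2* (Euclidean distance 0.0444 on the log2 scale), an atypical chemoattractant receptor gene, *Ddias* (0.0898), *Pml* (0.102), which encodes the organizer of nuclear bodies, *Treml2* (0.110) and *Agrn* (0.126). *Ccrl2*, for example, had signals of 218 in control cells, 576 after MG132, 909 after epoxomicin and 364 after ONX0914. The 3 differences share the DMSO array, and likeness over 4 arrays says nothing of shared control.

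The window before the start of *Ier3*, at chr17:35821463-35821712 on the plus strand of GRCm38.p6 (RefSeq), is shown because this gene differed most among the members. Capitals mark TATAA, which began at -58, and none of the other motifs searched was found in it.
Ier3: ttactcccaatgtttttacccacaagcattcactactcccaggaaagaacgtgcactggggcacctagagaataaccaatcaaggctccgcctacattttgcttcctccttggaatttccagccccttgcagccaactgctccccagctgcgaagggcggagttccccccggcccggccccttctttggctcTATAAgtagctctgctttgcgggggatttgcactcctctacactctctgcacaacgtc

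**Figure D4:**
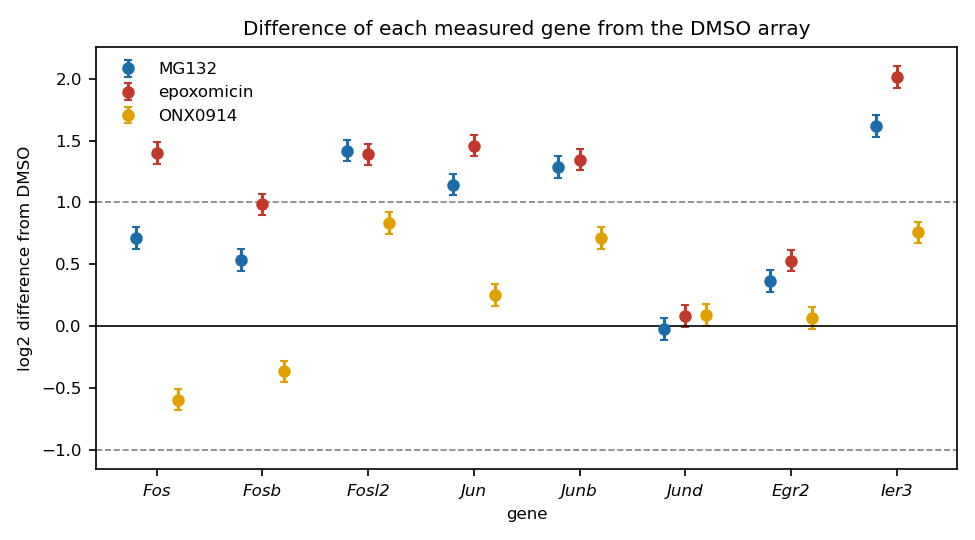
Log2 difference from DMSO (vertical axis) of the 8 measured genes after each inhibitor. Bars are the spot spread of 0.0867 on either side and carry no variation between cultures, and dashed lines mark 2-fold. Each gene is drawn by the probe that stands for it. Of the points drawn, *Ier3* after epoxomicin was the highest at 2.02, and *Fos* after ONX0914 the lowest at -0.59. The dimmer *Fosl2* probe, not drawn here, lay between -1.90 and -0.79.

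The inhibitors were given at the same dose and time, and the arrays are set against each other here as well as against DMSO. How far each compound inhibited the proteasome at that dose was not measured on these arrays. Over all genes compared with DMSO, 998 were at least 2-fold higher after MG132, 1177 after epoxomicin and 451 after ONX0914. Epoxomicin against MG132 had a median log2 difference of 0.24 over the 8 genes, beside 0.0068 over all genes compared. Epoxomicin gave higher levels than MG132, beyond the spot spread, for 6 of the 8. The widest of these was *Fos* at 0.68, and none reached 2-fold, where 0.814% of all genes were at least 2-fold higher. These 6 include *Jund*, at 0.104. *Junb* (0.06) and the brighter *Fosl2* probe (-0.03) lay within the spot spread, while the dimmer *Fosl2* probe was at -0.25. ONX0914 gave lower levels than MG132 for 7 of 8 (median -0.72, beside 0.028 over all genes). *Fos* was 2.47-fold lower (-1.31), the only member at least 2-fold lower by the probe that stands for its gene, where 3.04% of all genes were. The dimmer *Fosl2* probe was 2.16-fold lower (-1.11). That call of *Fos* was lost with the normexp model (-0.92, with or without outlier spots in its fit), and with *Hprt* as the only scaling *Fosb* (-1.08), *Jun* (-1.07) and *Ier3* (-1.04) passed 2-fold as well. ONX0914 was also below epoxomicin for 7 of 8 (median -0.92, beside 0.044 over all genes). Here 4 of 8 were at least 2-fold lower, where 4.42% of all genes were: *Fos* 3.98-fold (-1.99), *Fosb* 2.55-fold (-1.35), *Ier3* 2.39-fold (-1.26) and *Jun* 2.31-fold (-1.21). These 4 were at least 2-fold lower under every alternative run. *Jund* was the exception in both comparisons, at 0.112 and 0.01, but was at -0.06 and -0.13 with *Hprt* as the only scaling. Of the 24 steps between neighbouring levels over the 8 genes, 6 were within the spot spread: all of *Jund*, MG132 to epoxomicin for *Junb* and the brighter *Fosl2* probe, and ONX0914 to DMSO for *Egr2*. The shares of all genes that were higher or lower, or beyond the spot spread, between inhibitors were not counted. With 1 array per condition, none of these differences between inhibitors could be tested, and no interval can be given for them.

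Among 31 other immediate early genes, 28 were well above background. With MG132, 13 of them were at least 2-fold higher and 4 lower, after epoxomicin 15 and 2, and after ONX0914 8 and 2. Of all genes compared, 7.2%, 8.45% and 3.25% were higher and 3.67%, 4.39% and 1.39% lower, in the same order. The medians of the 28 genes were 0.86, 1.13 and 0.22. Those higher with all 3 inhibitors numbered 8, a count not made over all genes. *Csrnp1*, which encodes a nuclear protein, was the furthest, at log2 differences of 4.14 after MG132, 4.64 after epoxomicin and 3.01 after ONX0914. *Ppp1r15a*, which encodes the phosphatase subunit that reverses the block of translation in stress, was at 3.19, 3.05 and 2.404. *Plk2*, a kinase gene, was at 3.00, 3.47 and 1.31, and *Zfp36*, whose protein promotes decay of mRNAs with AU-rich elements, at 2.13, 2.55 and 1.76. The others were *Phlda1*, *Rhob*, *Klf6* and *Plk3*. *Zfp36l2*, of the same family as *Zfp36*, was lower with all 3 (-1.82, -1.62 and -1.02). *Myc* was at -1.81, -0.87 and -1.62 in the same order, and *Klf10* at -1.92, -1.72 and -0.99. *Nr4a1*, a nuclear receptor gene picked after its values were seen because it had the order of *Fos* and *Fosb*, had signals of 425 in control cells, 642 after MG132, 1411 after epoxomicin and 246 after ONX0914 (log2 differences 0.78, 1.71 and -0.75). *Egr3*, *Nr4a3* and *Ccn2* were not well above background on any array.

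Genes for other bZIP proteins, several of which can pair with Jun or Fos proteins, were more often higher than lower, as were all genes compared. Of 19, *Atf7* had no probe, *Batf* was at background and 17 were compared. With MG132, 8 were at least 2-fold higher and 1 lower, after epoxomicin 9 and 1, and after ONX0914 6 and 1 (medians 0.93, 1.09 and 0.64). Of all genes compared, 7.2%, 8.45% and 3.25% were higher and 3.67%, 4.39% and 1.39% lower, in the same order. *Batf2*, an interferon-inducible partner of Jun proteins, differed most, with signals of 113 in control cells, 3415 after MG132, 5315 after epoxomicin and 2161 after ONX0914 (log2 differences 5.10, 5.53 and 4.29). *Atf3*, a stress-induced repressor, was at 4.39, 4.57 and 2.91. *Ddit3*, which encodes CHOP of the unfolded protein response, was at 3.16, 2.76 and 3.16, and *Nfil3* at 2.57, 2.90 and 1.85. *Atf4* and *Maff* completed the 6 genes higher with all 3 inhibitors, a count not made over all genes. *Mafk* after ONX0914 (1.00) fell just short. *Maf* was lower with all 3, at -1.95, -1.79 and -1.27.

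**Figure D5:**
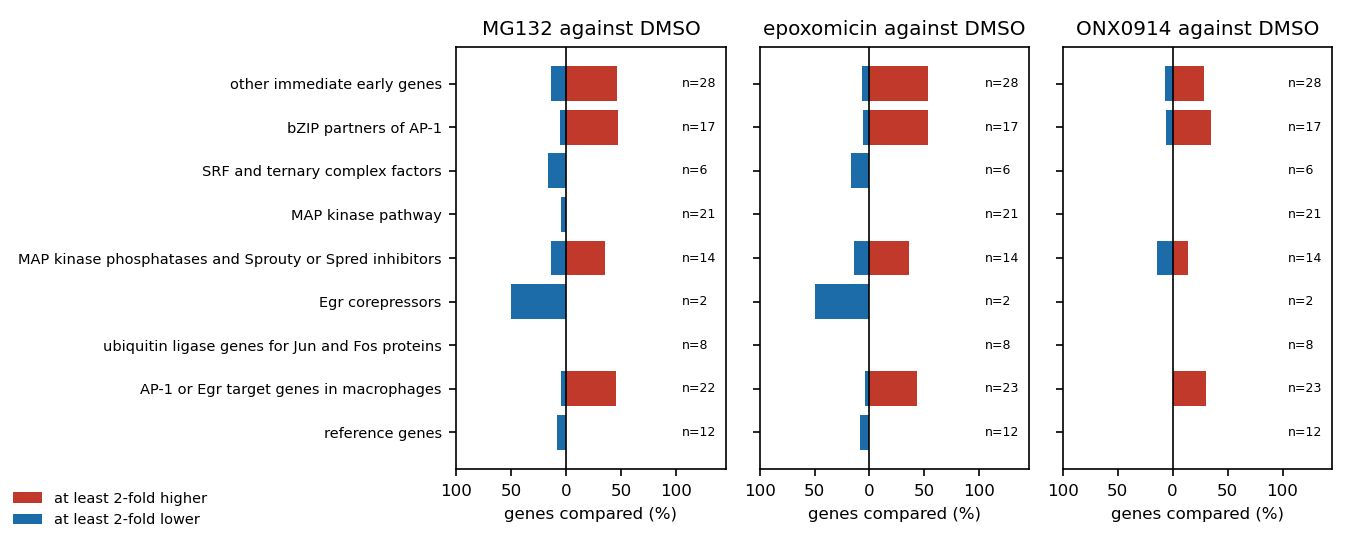
Share of the genes compared in each of 9 lists (horizontal axis, %) that were at least 2-fold higher (red, to the right) or lower (blue, to the left) than DMSO, with the number compared as n. The MAP kinase and ubiquitin ligase lists held 1 such gene between them, while 13 of 28 other immediate early genes and 8 of 17 bZIP genes were higher after MG132. Of all genes compared, 7.2%, 8.45% and 3.25% were higher after MG132, epoxomicin and ONX0914, and 3.67%, 4.39% and 1.39% lower.

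Genes of the pathway that drives immediate early transcription were mostly within 2-fold of the control, as most genes were. Of all genes compared, 7.2%, 8.45% and 3.25% were at least 2-fold higher after MG132, epoxomicin and ONX0914, and 3.67%, 4.39% and 1.39% lower. Of 6 genes for serum response factor and its cofactors, *Elk3* was at least 2-fold lower after MG132 (-1.001) and epoxomicin (-1.098) and was at -0.64 after ONX0914, and no other passed in either direction. *Srf* itself was at 0.22, 0.15 and -0.04. Of 21 genes for MAP kinases, their activators and downstream kinases, *Map2k6* was lower after MG132 (-1.18) and no other was at least 2-fold away with any inhibitor, with medians of -0.04, -0.04 and 0.09. Of 8 genes for the ubiquitin ligases and a deubiquitinase that act on Jun and Fos proteins, such as *Fbxw7*, *Cop1* and *Itch*, none was (medians 0.03, 0.07 and 0.04). The signs of these small medians changed with the scaling for the MAP kinase genes after MG132 and epoxomicin (0.16 and 0.12 with *Hprt* as the only scaling) and for the ubiquitin ligase genes after each inhibitor (-0.16 after MG132 without scaling). The proteins themselves were not measured.

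Genes for inhibitors of the pathway went in both directions. Among all genes compared, 7.2%, 8.45% and 3.25% were at least 2-fold higher after MG132, epoxomicin and ONX0914, and 3.67%, 4.39% and 1.39% lower. Of 14 MAP kinase phosphatase, Sprouty and Spred genes compared, 5 were higher and 2 lower after MG132, 5 and 2 after epoxomicin, and 2 and 2 after ONX0914 (medians 0.64, 0.30 and -0.04). With the normexp model the medians were -0.42, -0.42 and -0.69, and 0.32, 0.05 and -0.02 when outlier spots were left out of its fit. *Dusp1*, whose product removes phosphate from p38, JNK and ERK in the nucleus, was higher with all 3, with signals of 638 in control cells, 3790 after MG132, 5177 after epoxomicin and 2168 after ONX0914 (log2 differences 2.76, 3.00 and 1.80). *Dusp8* was higher too (2.27, 2.81 and 1.65). *Dusp7* and *Dusp6*, whose products act on ERK, were lower with all 3, at -2.71, -2.82 and -1.98 for *Dusp7* and -1.26, -1.11 and -1.002 for *Dusp6*. *Nab2*, a corepressor of Egr proteins, was at -1.19, -1.30 and -0.90, while the related *Nab1* was within 2-fold, each by its brightest probe. The medians of these 2 genes were -0.82, -0.77 and -0.48. With the mean over a gene's probes they were -1.22, -1.15 and -0.96.

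Genes that AP-1 or Egr proteins can regulate in macrophages were compared last. Of 24, 22 were compared after MG132 and 23 after epoxomicin and after ONX0914. At least 2-fold higher were 10 after MG132, 10 after epoxomicin and 7 after ONX0914, beside 7.2%, 8.45% and 3.25% of all genes. Lower were 1, 1 and 0, beside 3.67%, 4.39% and 1.39% of all genes. The medians were 0.81, 0.77 and 0.39, of which that after epoxomicin is the bound of *Vegfa* (0.997 with the signal in place of bounds). With the normexp model they were 0.57, 0.42 and 0.14, and 0.66, 0.70 and 0.33 when outlier spots were left out of its fit. *Il6*, a cytokine gene, had signals of 84.4 in control cells, 1168 after MG132, 1418 after epoxomicin and 687 after ONX0914 (log2 differences 3.98, 4.05 and 3.06). *Ptgs2*, which encodes an enzyme of prostaglandin synthesis, was at 3.70, 3.71 and 2.13, and *Cxcl2*, a neutrophil chemokine gene, at 3.75, 3.32 and 2.20. *Hmox1*, *Mmp13* and *Icam1* were the others higher with all 3. *Hbegf*, a growth factor gene, was at 2.62, 3.33 and 0.39 and *Il1b* at 1.42, 2.07 and -0.05. *Vegfa* was at background in control cells (signal 5.02) and after MG132 (8.63) and was detected after epoxomicin (25.4) and ONX0914 (102.2), with a log2 difference of at least 2.84 for ONX0914. *Tnf* was lower after MG132 and epoxomicin (-1.11 and -1.37) and at -0.35 after ONX0914. Many of these genes have other regulators, and which factor acted on them was not tested. Of 12 reference genes, *Gusb* was lower after MG132 and after epoxomicin and the others were within 2-fold, with medians of -0.12, -0.13 and -0.03 (0.09, 0.03 and 0.0025 with *Hprt*, itself in the list, as the only scaling).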

How the data were processed

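The 4 arrays were single-colour (Cy3) Agilent arrays, and the headers give a mouse design while the Methods name a human one. Scanner files of Feature Extraction 10.7.1.1 were deposited by the authors, in which the intensity of each spot (processed signal) is background-subtracted but not scaled between arrays, and a table of log2 values of all arrays, centred per probe, which correlated with the scaled and centred signals at r of at least 0.9996 over 22417 probes. Signals of 43020 spots per array were turned to log2 and the array's 75th percentile was subtracted. Spots marked as outliers by the software (159 to 194 per array) were left out, and spots of a probe were averaged.

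Probes were named through the accession in the files and the RefSeq table of GRCm38.p6, which gave 26581 of 39429 probes a symbol. The probe with the highest mean stood for a gene. A gene entered a comparison if either array had it well above background, and gave a bound if the dimmer array did not. A gene was called at 2-fold. The software's error of the members' signals was 10.0% to 13.4%, and depth was limited by the number of arrays, 1 per condition. The named genes are the members, the list genes called with all 3 inhibitors or furthest from DMSO, and the 5 genes nearest to *Ier3*. Other list genes in the text, among them *Myc*, *Klf10*, *Nr4a1*, *Srf*, *Nab1*, *Hbegf*, *Il1b*, *Tnf* and *Vegfa*, were picked after their values were seen. The members and the lists were chosen with earlier results of these data known. The steps were tested on simulated data. Versions were Python 3.11.15, numpy 2.4.6, pandas 2.3.3, R 4.3.3 and limma 3.58.1, used for the normexp alternative. Other scalings, background corrections, probe rules and thresholds were tried.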

Additional observations from a re-analysis of the deposited data

How the results depend on the processing

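Of 24 member differences from DMSO, 20 kept their sign and 16 their side of 2-fold under every alternative run other than the dimmer *Fosl2* probe. With the normexp model the counts over all genes were 470, 573 and 192 higher and 2704, 3236 and 2883 lower (MG132, epoxomicin and ONX0914 in this order throughout). With it 3 members were higher with epoxomicin and 1 lower with ONX0914, and the members' medians were 0.57 with MG132 and 0.65 with epoxomicin. Leaving outlier spots out of its fit, chosen after seeing the data, gave 604, 697 and 215 higher, 285, 380 and 74 lower, and medians of 0.82 and 1.099. At 4-fold 270, 337 and 114 genes were higher and 48, 60 and 20 lower, with 0 members higher with MG132 and 1 with epoxomicin. At 1.5-fold 2056, 2295 and 1053 genes were higher and 1783, 1982 and 713 lower, with 3 members higher and 1 lower with ONX0914. With *Hprt* as the only scaling 288 genes were lower with MG132 and 382 with epoxomicin, and the medians were 1.13 and 1.53. Without scaling 904 were lower with MG132 and the median was 0.74, and with a shift to the median it was 0.83. The mean over a gene's probes gave medians of 0.63, 1.17 and 0.0794. With ONX0914, 359 genes were lower in the authors' table, 347 with signals in place of bounds, and 289 were higher and 101 lower among genes well above background on all arrays. The dimmer *Fosl2* probe, also chosen after seeing the data, turned *Fosl2* to -0.79 with MG132 and -1.04 with epoxomicin and gave 1 member lower with epoxomicin and 1 with ONX0914. Except where the construction of an alternative shows it (thresholds, probe choice, fewer genes), the cause was not tested. Naming by the scanner files' own gene names was not run, as the files used here hold no such column. No paired analysis was possible because each condition has 1 array, and no array could be left out for the same reason. Signal over background limits *Fosl1* and *Egr1*, for which no difference could be measured.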
